A study of Mus musculus with 24 samples.

Results

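Activated regulatory T cells (aTregs) were compared with resting regulatory T cells (rTregs) of the same young mice. Both subsets were taken from spleen by FACS. The donors were 4 young mice, aged 2 months, of the wild-type strain C57BL/6JRccHsd, and each subset of each mouse gave 1 bulk RNA-seq library, so 4 aTreg and 4 rTreg libraries entered the comparison, paired by mouse. The labels give rTregs as CD62L+ CD44- cells and aTregs as CD62L- CD44+ cells. Of the 17464 genes listed for the 24 libraries of the series, 14490 had a normalized count of at least 10 in at least 4 of the 8 libraries and were tested. The other 16 libraries were KLRG1+ Tregs (kTregs) of these mice and all 3 subsets of 4 old mice, 26 months old and of the same strain. Values are normalized counts, the reads of a gene divided by 1 size factor per library, and 1 read was worth 0.804 to 1.32 of these units in the 8 libraries. Between 15915017 and 23642676 reads lay on listed genes. The spread between these libraries holds that between mice together with that of sorting and library preparation. With 1 library per subset of each mouse these cannot be told apart. Since the cDNA was amplified by PCR without molecular identifiers, limits from these reads cover counting error only. A listed value of 0 allows a level of up to 3 reads, which is 2.41 to 3.95 normalized counts.

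Regulatory T cells (Tregs) are CD4+ T cells that hold immune responses in check and depend on the transcription factor FOXP3. Resting Tregs circulate through blood, spleen and lymph nodes, entering lymph nodes with adhesion molecules and the chemokine receptor CCR7. On stimulation through the T cell receptor they lose homing molecules and take up CD44, receptors for inflamed tissue and inhibitory receptors such as PD-1 and CTLA-4, and switch on transcription factors such as BLIMP-1, the product of *Prdm1*, and ID2.

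Genes were called higher or lower at a Benjamini-Hochberg adjusted p below 0.05 in limma, with the mouse as a block, and a fold change above 1.5. A gene given as not called can have passed the p limit and missed the fold limit alone. Differences are given as log2 of aTreg over rTreg on the log2(value + 1) scale, which understates the change of genes with low values. By this rule 1189 genes were higher in aTregs (8.21% of those tested) and 587 were lower (4.05%), 12.3% in either direction. The counts of called list members given below are to be read against these shares. The median fold change was 2.52 among the higher and 1.85 among the lower genes, and 331 of the higher but 72 of the lower genes changed more than 4-fold. In 885 of the higher and 375 of the lower genes no aTreg library overlapped any rTreg library, and 1171 and 578 moved the same way in all 4 mice. These counts were taken among called genes only. The paired test selects for such agreement, so they describe the calls and are no separate result. The filter was passed only through the aTreg libraries by 92 of the genes tested and only through the rTreg libraries by 18. The median difference over all genes tested was 0.019, and 51.8% lay above 0. Without the pairing by mouse the counts were 787 higher and 316 lower, and without mouse 3 they were 741 and 320. In bulk samples, fewer cells of a type and less RNA per cell cannot be told apart.

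**Figure D1:**
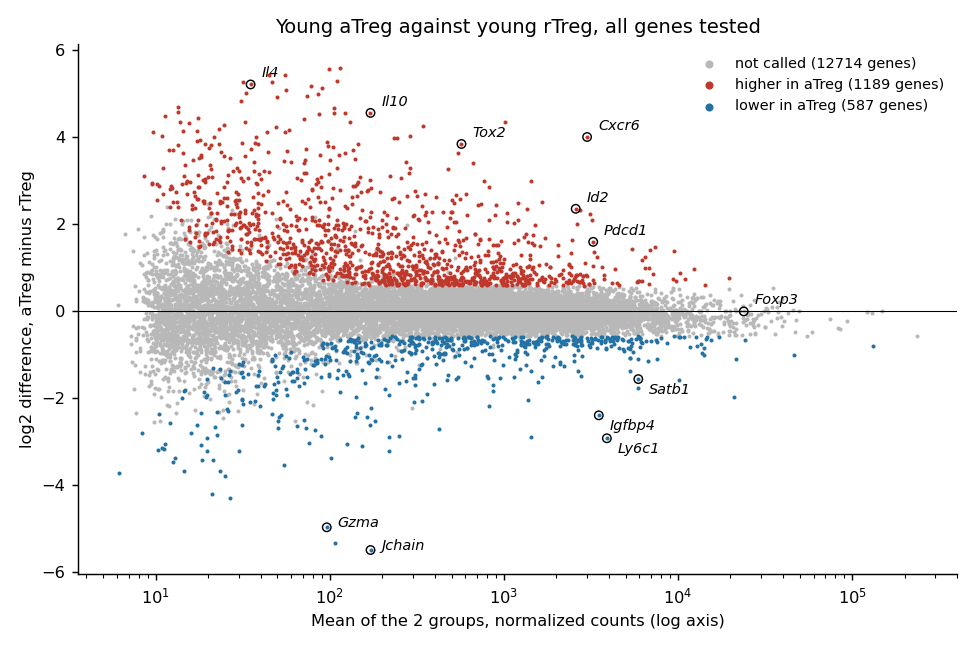
Each point is 1 of the 14490 genes tested: the x axis gives the mean of the aTreg and rTreg group means in normalized counts on a log axis, the y axis the log2 difference of aTreg minus rTreg. The 1189 red genes were higher and the 587 blue genes lower in aTregs, the circled genes are described in the text, and *Foxp3* lies at −0.0096 on the y axis.

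The markers that defined the gates and the Treg state were looked at first. *Cd44* was listed at 3253, 2932, 4356 and 3532 normalized counts in the aTreg libraries of mice 1 to 4 and 1885, 2509, 1628 and 1798 in their rTreg libraries, with a log2 difference of 0.85 ± 0.16 (SE, adjusted p = 0.0048). For *Cd44* every aTreg library lay above every rTreg library. Since the CD44 protein set the gates, this difference checks the labels and is not a result. *Foxp3* was listed at 20351, 24068, 24857 and 25465 in aTregs and 21854, 20577, 24096 and 29388 in rTregs. The groups overlapped, 2 mice were higher and 2 lower, and the difference was −0.0096 ± 0.08 (SE, adjusted p = 0.94). For *Il2ra*, which encodes CD25, the difference was −0.18 ± 0.08 (SE, adjusted p = 0.16), and for *Cd4* it was 0.40 ± 0.08 (SE, adjusted p = 0.0067), below the 1.5-fold limit. *Klrg1* was listed at 177, 106, 108 and 109 in aTregs and 99.7, 139.6, 50.1 and 37.1 in rTregs, with a difference of 0.76 ± 0.31 (SE, adjusted p = 0.12), while the kTreg libraries of these mice held 26704 to 41561. *Klrg1* overlapped between the subsets, with mice on both sides. Of 16 genes of the Treg core identity list, 2 were higher and 1 was lower, near the shares of 8.21% and 4.05% over all genes tested. *Ctla4*, the inhibitory receptor that strips CD80 and CD86 from antigen-presenting cells, differed by 0.69 ± 0.10 (SE, adjusted p = 0.0012) and *Trib1* by 0.64. *Gpr83*, a receptor enriched in Tregs, was the member that fell, at −0.73 ± 0.08 (SE, adjusted p = 3.34e-04). *Ikzf2*, which encodes Helios, at 0.38 and *Nrp1* at 0.53 passed the p limit (adjusted p = 0.0046 and 0.0020) but missed the 1.5-fold limit. *Tnfrsf18* and *Lrrc32* were not called. Without mouse 2, 1 was higher. The list's median of 0.044 lay close to that of all genes.

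*Id2* and *Igfbp4* had been set as markers of aTregs and rTregs with earlier results of these data known. Their separation of the subsets is therefore no independent check. *Id2* encodes an inhibitor of E proteins, the transcription factors that bind E-box sequences. *Id2* was listed at 5294, 3369, 5118 and 3501 normalized counts in the aTreg libraries of mice 1 to 4 and 1009.9, 831, 970.3 and 575 in their rTreg libraries. For *Id2* every aTreg library lay above every rTreg library. Its difference of 2.35 ± 0.10 (SE, adjusted p = 2.09e-05) had the smallest p among the higher genes. *Igfbp4*, which encodes a binding protein of insulin-like growth factors, was listed at 1053, 1285, 762 and 1383 in aTregs and 5511, 4428, 6005 and 7621 in rTregs. Its difference was −2.40 ± 0.16 (SE, adjusted p = 4.58e-05). For *Igfbp4* every aTreg library lay below every rTreg library.

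The promoters of 2 named genes in each direction, chosen after their values were seen, are shown to set the sequences beside the levels. They are the 250 bases before the start of the GENCODE M39 canonical transcript, read 5′ to 3′ on the gene's strand from GRCm39, the build of the deposited values. *Tmem176a* and *Satb1* had smaller p than some of those shown, but their windows lie in untranslated exons of other transcripts and are not printed. *Abcb1a*, *Ccr7* and *Ndrg3* also had smaller p than some of those shown, and their windows were not drawn. The E-box CAGNTG, the AP-1 motif TGANTCA, the forkhead motif GTAAACA and the TCF and LEF motif CTTTGAT were searched on both strands, each counted on its own where they overlap. Capitals mark the matches, which in these windows were all to the E-box form CAGNTG. E-boxes with other letters, such as cacgtg in the *Id2* window, were not searched and are not marked. The *Id2* window lies at chr12:25147283-25147532 on the minus strand, that of *Tox2* at chr2:163044782-163045031 on the plus strand, that of *Igfbp4* at chr11:98931814-98932063 on the plus strand and that of *Ly6c1* at chr15:74920664-74920913 on the minus strand. The *Igfbp4* window overlaps an exon of the predicted gene *Gm72292*, and up to 11 bases of the *Tox2* and 23 bases of the *Ly6c1* window are untranslated exon in another transcript of the gene.
Id2: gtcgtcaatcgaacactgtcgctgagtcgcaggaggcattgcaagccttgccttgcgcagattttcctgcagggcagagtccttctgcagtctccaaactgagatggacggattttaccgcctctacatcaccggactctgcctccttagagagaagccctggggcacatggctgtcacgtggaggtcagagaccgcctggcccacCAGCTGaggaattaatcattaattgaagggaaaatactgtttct
Tox2: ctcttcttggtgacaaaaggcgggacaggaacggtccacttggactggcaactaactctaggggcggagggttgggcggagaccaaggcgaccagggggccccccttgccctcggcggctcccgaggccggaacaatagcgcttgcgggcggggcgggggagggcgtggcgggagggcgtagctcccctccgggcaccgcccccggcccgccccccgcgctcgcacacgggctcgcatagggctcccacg
Igfbp4: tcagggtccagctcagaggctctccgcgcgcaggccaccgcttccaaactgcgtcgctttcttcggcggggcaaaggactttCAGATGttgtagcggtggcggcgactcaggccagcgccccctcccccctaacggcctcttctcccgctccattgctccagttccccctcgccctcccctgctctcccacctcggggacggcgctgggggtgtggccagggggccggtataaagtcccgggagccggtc
Ly6c1: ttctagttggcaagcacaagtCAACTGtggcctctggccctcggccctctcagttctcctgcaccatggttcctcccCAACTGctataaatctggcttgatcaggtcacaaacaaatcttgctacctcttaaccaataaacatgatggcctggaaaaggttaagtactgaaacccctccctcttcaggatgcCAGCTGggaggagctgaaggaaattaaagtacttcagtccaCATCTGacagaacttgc
Over the protein-coding genes tested, the E-box form CAGNTG lay in 39.7% of such windows. It lay in 47.9% of those of the 1082 genes called higher and 45.7% of those of the 418 called lower. The AP-1 motif lay in 4.34% of all windows, in 6.38% of those of higher genes and in 4.78% of those of lower genes. For the forkhead motif the shares were 2.36%, 2.03% and 1.67%, and for the TCF and LEF motif 2.23%, 1.85% and 2.63%, in the same order. A match of letters describes the sequence and is not a bound site, and these shares were not tested.

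The higher genes with the smallest p, beside *Id2*, held receptors, an efflux pump and a nuclear factor. *Tox2*, which encodes an HMG-box nuclear factor of activated and follicular T cells, was listed at 996, 1339.6, 973 and 939 in aTregs and 100.7, 121, 52.7 and 42.2 in rTregs, a difference of 3.84 ± 0.21 (SE, adjusted p = 2.54e-05). *Tmem176a* and *Tmem176b* are neighbouring genes of cation channel-like membrane proteins. *Tmem176a* was listed at 858, 1465, 1019 and 834 in aTregs and 129, 273, 145 and 120.4 in rTregs, a difference of 2.68 ± 0.13 (SE, adjusted p = 2.54e-05), and *Tmem176b* differed by 2.44 ± 0.14 (SE, adjusted p = 3.64e-05). The genes overlap at their starts on opposite strands, and with the strand setting of the counting not given, reads there cannot be told apart. *Abcb1a*, which encodes the efflux pump P-glycoprotein, was listed at 1442, 1702, 1607 and 1962 in aTregs and 392, 361, 349 and 543 in rTregs, a difference of 2.04 ± 0.11 (SE, adjusted p = 2.54e-05). *Pdcd1*, which encodes PD-1, was listed at 5719, 5004, 4538 and 4208 in aTregs and 1896, 2068, 1412 and 1194 in rTregs, a difference of 1.59 ± 0.10 (SE, adjusted p = 4.42e-05). For *Tox2*, *Tmem176a*, *Abcb1a* and *Pdcd1* every aTreg library lay above every rTreg library. *Cyfip1*, a part of the WAVE actin regulatory complex, differed by 1.53 ± 0.09 (SE, adjusted p = 4.42e-05), and *Cd83*, an activation molecule, by 1.40 ± 0.09 (SE, adjusted p = 4.42e-05). For *Tmem176b*, *Cyfip1* and *Cd83* the subsets did not overlap either.

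The largest fold changes among higher genes with at least 100 normalized counts in every aTreg library belonged to genes with low levels in rTregs. *Upp1*, which encodes uridine phosphorylase 1, was listed at 110.3, 263, 137 and 151 in aTregs and 4.11, 7.75, 11.9 and 0 in rTregs, a difference of 5.01 ± 0.57 (SE, adjusted p = 4.64e-04). *Il10*, the gene of the suppressive cytokine IL-10, was listed at 254, 261, 446 and 336 in aTregs and 37.0, 27.7, 3.95 and 5.02 in rTregs, a difference of 4.56 ± 0.58 (SE, adjusted p = 7.59e-04). *Il17re*, a chain of the IL-17C receptor, differed by 4.55 ± 0.40 (SE, adjusted p = 1.32e-04). *Il23r*, the receptor chain for IL-23, was listed at 153, 194, 166 and 138 in aTregs and 9.25, 33.2, 0 and 6.02 in rTregs, a difference of 4.52 ± 0.66 (SE, adjusted p = 0.0015). For *Upp1*, *Il10* and *Il23r* every aTreg library lay above every rTreg library. *Ccl1*, the gene of the CCR8 ligand, was listed at 185, 198, 402 and 206 in aTregs and 21.6, 21.0, 2.64 and 9.03 in rTregs and differed by 4.34 ± 0.56 (SE, adjusted p = 7.91e-04). For *Ccl1* every aTreg library lay above every rTreg library. The *Il17re* libraries were separated in the same way.

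The lower genes with the smallest p included genes of the resting state. *Satb1*, a chromatin organizer of thymocytes and naive T cells, was listed at 3100.3, 2713, 2652 and 3400.4 in aTregs and 8352, 7132, 9045 and 10888 in rTregs, a difference of −1.57 ± 0.08 (SE, adjusted p = 2.54e-05). *Ly6c1*, a surface protein gene that shares much sequence with *Ly6c2*, was listed at 1097, 639, 735 and 1146 in aTregs and 6317, 4592, 9121 and 7558 in rTregs, a difference of −2.93 ± 0.16 (SE, adjusted p = 2.54e-05), and reads of the pair could be split between them. For *Satb1* and *Ly6c1* every aTreg library lay below every rTreg library. *Ccr7*, the lymph node homing receptor, was listed at 9336, 9136, 8971 and 9958 in aTregs and 18904, 17966, 19606 and 19265 in rTregs. Its aTreg libraries stood close together, with a difference of −1.02 ± 0.06 (SE, adjusted p = 4.42e-05). For *Ccr7* every aTreg library lay below every rTreg library. *Ndrg3* differed by −1.08 ± 0.07 (SE, adjusted p = 4.58e-05), *Aven*, an inhibitor of caspase activation, by −1.23 ± 0.08 (SE, adjusted p = 5.75e-05), and *Pdlim1*, an actin-associated adaptor, by −1.50 ± 0.11 (SE, adjusted p = 7.68e-05). The largest decreases among protein-coding genes with at least 100 in every rTreg library were those of *Gzma*, *Dapl1*, *Ampd1*, *Ly6c1* and *Lyz2*. *Gzma*, the gene of granzyme A, was listed at 5.57, 66.1, 0.804 and 0 in aTregs and 105, 192, 239.9 and 159.6 in rTregs, a difference of −4.98 ± 0.85 (SE, adjusted p = 0.0031). For *Gzma* every aTreg library lay below every rTreg library. *Dapl1*, known from naive and resting T cells, differed by −3.22 ± 0.26 (SE, adjusted p = 1.06e-04), and *Ampd1*, the AMP deaminase gene, by −3.12 ± 0.27 (SE, adjusted p = 1.29e-04). *Lyz2* is a myeloid gene and is described with the markers of other cells.

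**Figure D2:**
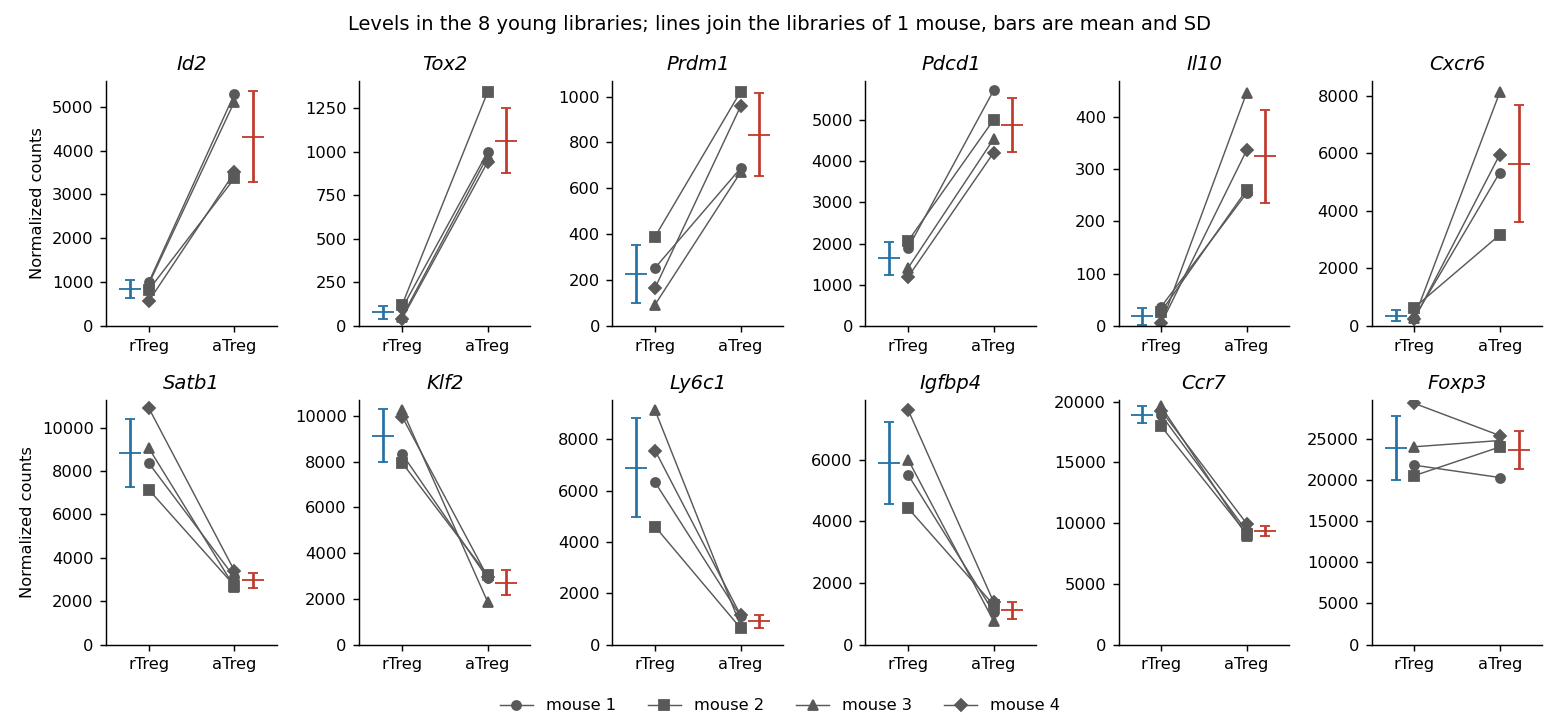
Normalized counts of 12 genes in the 8 young libraries, with a line for each mouse and the mean and SD of each group beside the points (n = 4). Lines rise in every mouse for *Id2*, *Tox2*, *Prdm1*, *Pdcd1*, *Il10* and *Cxcr6*, fall in every mouse for *Satb1*, *Klf2*, *Ly6c1*, *Igfbp4* and *Ccr7*, and go both ways for *Foxp3*.

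Transcription factors of effector and resting Tregs moved apart. Of the effector list, 18 of 24 factors tested were higher and 0 lower, with a median of 1.02. The libraries of mouse 2 stood apart in markers of other blood cells, and without that mouse 19 were higher. *Bhlhe40*, a repressor of *Il10* in other T cells, was listed at 3245, 2215, 1611 and 1226 in aTregs and 915, 875, 508 and 419.6 in rTregs, a difference of 1.59 ± 0.10 (SE, adjusted p = 4.58e-05). *Prdm1*, which encodes BLIMP-1, was listed at 687, 1021, 669.5 and 957 in aTregs and 254, 389.9, 93.6 and 167 in rTregs, a difference of 2.04 ± 0.24 (SE, adjusted p = 5.25e-04). *Maf* differed by 2.25 ± 0.24 (SE, adjusted p = 3.52e-04) and *Rora* by 1.56 ± 0.12 (SE, adjusted p = 8.37e-05). For *Bhlhe40* and *Prdm1* every aTreg library lay above every rTreg library. *Tbx21* and *Bcl6*, factors that name helper programs, were each higher. *Tbx21*, the T-bet gene of type 1 helper cells, was listed at 859, 732, 975 and 739 in aTregs and 168, 265, 131 and 138 in rTregs, a difference of 2.28 ± 0.21 (SE, adjusted p = 1.45e-04). *Bcl6*, the factor of follicular cells, differed by 1.05 ± 0.14 (SE, adjusted p = 9.07e-04). *Gata3* was listed at 3146, 2647, 2809 and 2894 in aTregs and 3104, 2371, 2929 and 2842 in rTregs, a difference of 0.036 ± 0.07 (SE, adjusted p = 0.77). For *Tbx21* every aTreg library lay above every rTreg library. *Gata3* overlapped between the subsets, with mice on both sides. *Batf*, an AP-1 partner needed by effector Tregs, differed by 0.58 ± 0.08 (SE, adjusted p = 0.001) and missed the 1.5-fold limit. *Tox* missed it as well, at 0.50 ± 0.07 (SE, adjusted p = 0.0015), and *Zeb2*, *Runx3* and *Pparg* did not pass the p limit. *Irf4* (0.98), *Ahr* (1.93), *Hif1a* (1.00), *Nfatc1* (1.17), *Nfil3* (1.34), *Ikzf3* (0.77), *Relb* (0.68), *Runx2* (0.92) and *Eomes* (0.72) were also called.

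Of the list of resting and naive state factors, 5 of 19 were lower and 0 higher, with a median of −0.41 and 6 lower without mouse 2. *Klf2*, which drives the gene of the egress receptor S1PR1, was listed at 2901, 3033, 1878 and 2966 in aTregs and 8339, 7953, 10280.2 and 9970.0 in rTregs, a difference of −1.78 ± 0.15 (SE, adjusted p = 1.08e-04). *Lef1*, a partner of TCF-1, was listed at 3699.6, 3494, 2900.0 and 3455 in aTregs and 7012, 6309.8, 7310.1 and 8039 in rTregs, a difference of −1.08 ± 0.09 (SE, adjusted p = 1.12e-04). For *Klf2* and *Lef1* every aTreg library lay below every rTreg library. *Sox4* (−1.66) and *Bach2* (−0.70), a repressor that holds Tregs in the resting state, were the other called members beside *Satb1*. *Tcf7*, which encodes TCF-1 itself, was listed at 13583, 15329, 13122 and 15191 in aTregs and 15639, 15597, 14736 and 19428 in rTregs, a difference of −0.19 ± 0.07 (SE, adjusted p = 0.085). *Tcf7* overlapped between the subsets, although the aTreg library was lower in each of the 4 mice. *Id3* differed by −0.53 ± 0.09 (SE, adjusted p = 0.0026), below the 1.5-fold limit, while *Foxo1* (−0.41), *Foxp1* (−0.47) and *Myb* (−0.41) were not called either.

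Genes of trafficking changed in both directions. Of the lymph node homing and egress list, 5 of 11 members tested were lower and 2 of 11 higher. The lower members included *Ccr7*, *Klf2*, *S1pr1* and *S1pr4*. *S1pr1*, the receptor that lets lymphocytes leave lymphoid organs along sphingosine-1-phosphate, was listed at 4924, 6274, 3341 and 5660.1 in aTregs and 12383, 13767, 14711 and 19512 in rTregs, a difference of −1.60 ± 0.14 (SE, adjusted p = 1.35e-04), and *S1pr4* differed by −0.65. For *S1pr1* every aTreg library lay below every rTreg library. The higher members were *Cxcr5*, the receptor that leads cells to B cell follicles, at 1.33 ± 0.14 (SE, adjusted p = 2.65e-04), and *Itgal*, a chain of LFA-1, at 0.88 ± 0.11 (SE, adjusted p = 7.17e-04). Of the chemokine receptor list, 12 of 18 were higher and 1 of 18 lower, with a median of 1.59. *Cxcr6*, the receptor for CXCL16, was listed at 5334, 3169, 8119.8 and 5958 in aTregs and 289.7, 638, 287 and 229 in rTregs, a difference of 4.00 ± 0.34 (SE, adjusted p = 1.11e-04). *Ccr8*, the receptor for CCL1, was listed at 3455, 2757, 2274 and 1834 in aTregs and 1348, 897, 732 and 416 in rTregs, a difference of 1.69 ± 0.12 (SE, adjusted p = 8.22e-05), so that the receptor and its ligand gene *Ccl1* were both higher. *Cxcr3*, the T-bet-driven receptor of inflamed tissue, was listed at 5638, 3676, 5973 and 5102 in aTregs and 1459, 1575, 732 and 785 in rTregs, a difference of 2.22 ± 0.24 (SE, adjusted p = 3.34e-04). For *Cxcr6*, *Ccr8* and *Cxcr3* every aTreg library lay above every rTreg library. *Ccr2* (2.04), *Ccr1* (1.86), *Ccr6* (1.65), *Ccr4* (1.62), *Ccrl2* (1.09), *Cxcr5* and the gut receptors *Gpr15* (1.57) and *Ccr9* (1.16) were also called, while *Cxcr4* at 0.19 ± 0.22 (SE, adjusted p = 0.59), *Ccr3*, *Ccr10*, *Cx3cr1* and *Xcr1* were not. Without mouse 2, 13 chemokine receptors were higher.

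Of the integrin chains, 7 of 17 tested were higher and 2 of 17 lower, against 8.21% and 4.05% over all genes tested. *Itgae*, the αE chain (CD103) that binds E-cadherin, was listed at 3188, 6045, 4794 and 6618 in aTregs and 1149, 2011, 689 and 1119 in rTregs, a difference of 2.10 ± 0.20 (SE, adjusted p = 1.94e-04). *Itgb8*, whose product with αV releases active TGF-β, was listed at 387, 597, 553 and 289 in aTregs and 173, 183, 137 and 76.3 in rTregs, a difference of 1.69 ± 0.18 (SE, adjusted p = 3.13e-04), and *Itgav*, the αV gene, was called higher at 1077, 1355, 799.8 and 764 in aTregs and 463, 399.9, 359 and 576 in rTregs. For *Itgae*, *Itgb8* and *Itgav* every aTreg library lay above every rTreg library. *Itgb1* differed by 0.67 ± 0.07 (SE, adjusted p = 3.94e-04), *Itgb5* by 2.60 and *Itga4* by 0.59, and *Itgal* is given above. *Itga6* was lower at −0.63 ± 0.09 (SE, adjusted p = 0.0011). *Itgb3* was lower at −0.63 ± 0.17 (SE, adjusted p = 0.027), a call lost without the pairing and without mouse 1, 3 or 4, and without mouse 4 that of *Itga6* was lost as well.

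Of the checkpoint and costimulatory receptors, 11 of 20 were higher and 0 lower, with a median of 0.73. *Tigit*, a receptor for CD155, was listed at 2421, 2156, 2489 and 1009 in aTregs and 548, 668, 250.5 and 143 in rTregs, a difference of 2.49 ± 0.22 (SE, adjusted p = 1.41e-04). *Cd160*, a receptor for HVEM, was listed at 1277, 801, 1232 and 922 in aTregs and 455, 341, 385 and 277 in rTregs, a difference of 1.53 ± 0.12 (SE, adjusted p = 9.64e-05). *Icos*, a costimulatory receptor of effector Tregs, was listed at 10604, 8649, 12021 and 11848 in aTregs and 5393, 4796, 3255 and 2604 in rTregs, a difference of 1.47 ± 0.20 (SE, adjusted p = 9.59e-04). For *Tigit*, *Cd160* and *Icos* every aTreg library lay above every rTreg library. *Havcr2*, the TIM-3 gene, was higher at 1.74 ± 0.42 (SE, adjusted p = 0.016) and *Lag3*, an inhibitory receptor for MHC class II, at 1.68 ± 0.40 (SE, adjusted p = 0.016). *Pdcd1* and *Ctla4* belong to the same group. *Cd226* (0.65), *Cd200r1* (0.78), *Pdcd1lg2* (0.76) and *Cd86* (0.91) were the other called members. *Cd28* (0.20), *Btla* (0.11), *Cd96* (−0.19) and *Vsir* (0.18) were not called. Without mouse 2, 12 members were higher, and without mouse 3, 8.

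Of the TNF receptor superfamily, 3 of 18 members tested were higher and 0 lower, against 8.21% and 4.05% over all genes tested. *Tnfrsf9*, the 4-1BB gene, was listed at 11208, 9237, 8688 and 7269 in aTregs and 5603, 5034, 3913 and 3853 in rTregs, a difference of 0.99 ± 0.07 (SE, adjusted p = 7.80e-05). *Tnfrsf1b*, the gene of TNFR2, was listed at 11089.9, 16673, 11594 and 15069.6 in aTregs and 5347, 7732, 3276 and 5234 in rTregs, a difference of 1.38 ± 0.12 (SE, adjusted p = 1.29e-04). *Tnfrsf8*, which encodes CD30, was listed at 471, 784, 393 and 456 in aTregs and 120.2, 235, 46.1 and 32.1 in rTregs, a difference of 2.64 ± 0.31 (SE, adjusted p = 5.41e-04). For *Tnfrsf9*, *Tnfrsf1b* and *Tnfrsf8* every aTreg library lay above every rTreg library. The OX40 gene *Tnfrsf4* differed by 0.37 ± 0.06 (SE, adjusted p = 0.0034), below the 1.5-fold limit. The GITR gene *Tnfrsf18* differed by 0.094 ± 0.07 (SE, adjusted p = 0.39), and *Cd27*, *Fas* and *Tnfrsf25* were not called.

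Of the cytokine receptor chains, 11 of 27 were higher and 2 of 27 lower, with a median of 0.38. *Il23r*, *Il1r1* and *Il17rb* had the largest differences. *Il17rb*, a chain of the IL-25 receptor, was listed at 387, 252, 402 and 307 in aTregs and 69.9, 44.3, 39.5 and 46.2 in rTregs, a difference of 2.74 ± 0.22 (SE, adjusted p = 9.64e-05). For *Il17rb* every aTreg library lay above every rTreg library. *Il18r1* and *Il18rap*, the chains of the IL-18 receptor, differed by 1.58 ± 0.14 (SE, adjusted p = 1.37e-04) and 2.09 ± 0.19 (SE, adjusted p = 1.63e-04). *Il1r1* (3.80) and the decoy receptor *Il1r2* (2.52), *Il12rb2* (2.14), *Il12rb1* (1.56), *Il9r* (1.29), *Il10ra* (0.84) and *Il23r* were called as well. *Il7r*, the survival receptor for IL-7, was listed at 4365, 6222, 4888 and 4884 in aTregs and 2663, 3563, 3294 and 3507 in rTregs, a difference of 0.64 ± 0.08 (SE, adjusted p = 6.23e-04). For *Il7r* every aTreg library lay above every rTreg library. The 2 lower members were *Ifngr2* at −0.77 ± 0.10 (SE, adjusted p = 9.36e-04) and *Il6ra* at −0.59 ± 0.11 (SE, adjusted p = 0.0045), and 1 was lower without mouse 1 or without mouse 4. *Il1rl1*, which encodes the IL-33 receptor ST2, was listed at 175, 192, 203 and 243 in aTregs and 154, 209, 132 and 133 in rTregs. *Il1rl1* overlapped between the subsets, with mice on both sides. Its difference was 0.38 ± 0.20 (SE, adjusted p = 0.21), while the kTregs of these mice held 3991 to 5859.

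Of the suppressive and repair mediators, 9 of 17 were higher and 2 of 17 lower, with a median of 1.23. *Penk*, which encodes proenkephalin, was listed at 6417, 4194, 3446 and 2582 in aTregs and 1361, 1548, 813 and 537 in rTregs, a difference of 2.00 ± 0.13 (SE, adjusted p = 4.78e-05). *Nt5e*, the gene of the ectoenzyme CD73 that makes adenosine, was listed at 6778, 10117, 8334 and 10834 in aTregs and 3351, 5100.1, 2779 and 4275 in rTregs, a difference of 1.23 ± 0.10 (SE, adjusted p = 1.08e-04). For *Penk* and *Nt5e* every aTreg library lay above every rTreg library. *Fgl2* (2.44), *Il1rn* (3.04), which encodes the IL-1 receptor antagonist, *Ebi3* (1.64), a subunit of IL-35 and IL-27, *Gzmb* (1.37) and *Pdgfb* (1.25) were also higher, beside *Il10* and *Itgb8*. The lower members were cytotoxic genes, *Gzma* and *Prf1*. *Prf1*, the perforin gene, was listed at 164, 247, 194 and 218 in aTregs and 444, 438, 479.9 and 533 in rTregs, a difference of −1.21 ± 0.15 (SE, adjusted p = 6.94e-04). *Gzmb* was listed at 463, 595, 638 and 799 in aTregs and 377, 378, 142 and 154 in rTregs, so that the granzyme genes moved in opposite directions in all 4 mice. For *Gzmb* every aTreg library lay above every rTreg library. For *Prf1* every aTreg library lay below every rTreg library. *Tgfb1* (0.24), *Entpd1* (0.52), *Areg* (0.57) and *Lgals1* at −0.54 ± 0.09 (SE, adjusted p = 0.0027), the last below the 1.5-fold limit, were not called.

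Of 13 cytokines and markers of helper CD4+ T cells, 12 were listed, 9 passed the filter and 9 were called higher. *Il4*, *Il17f* and *Csf2* reached the filter's level of 10 in aTreg libraries alone and so entered the test through the subset where they were high. The count was 9 without mouse 2, 8 without the pairing and 3 in the fit of all 24 libraries in 6 groups. *Il21*, the cytokine of follicular helper cells, was listed at 313, 163, 240.3 and 302 in aTregs and 33.9, 32.1, 27.7 and 33.1 in rTregs, a difference of 2.93 ± 0.24 (SE, adjusted p = 1.08e-04). *Ifng*, the type 1 cytokine, was listed at 410.0, 152, 421 and 213 in aTregs and 79.1, 19.9, 40.9 and 18.1 in rTregs, a difference of 3.01 ± 0.25 (SE, adjusted p = 1.10e-04). *Il4*, the type 2 cytokine, was listed at 81.3, 51.6, 73.9 and 68.4 in aTregs and 4.11, 0, 1.32 and 0 in rTregs, a difference of 5.21 ± 0.57 (SE, adjusted p = 3.54e-04), with the rTreg libraries at or near the level that a count of 0 allows. For *Il21* and *Ifng* every aTreg library lay above every rTreg library. *Il4* was separated too, which its way through the filter had fixed. *Il2*, which Tregs themselves are known to silence, was listed at 118, 58.9, 65.1 and 78.8 in aTregs and 15.4, 2.22, 13.2 and 6.02 in rTregs, a difference of 3.20 ± 0.43 (SE, adjusted p = 9.96e-04). For *Il2* every aTreg library lay above every rTreg library. *Il17f* (3.87), *Csf2* (3.36) and *Sostdc1* (4.68), a marker of follicular cells, stood at low levels, and *Sostdc1* ranged from 5.20 to 582 among the aTreg libraries. *Cd40lg* differed by 0.74 ± 0.09 (SE, adjusted p = 5.25e-04) and *Tnf* by 0.59 ± 0.09 (SE, adjusted p = 0.0017). Whether these transcripts came from Tregs or from other CD4+ cells inside the gate was not tested, and *Foxp3* and *Il2ra* levels are given above.

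Single genes of T cell receptor signalling were called, to be read against the 8.21% higher and 4.05% lower over all genes. Of the immediate response genes, 3 of 23 tested were higher and 0 lower, with a median of 0.12. *Egr2*, a factor of tolerance and repeated stimulation, was listed at 1873, 2447, 1806 and 1743 in aTregs and 934, 1192, 834 and 934 in rTregs, a difference of 1.01 ± 0.09 (SE, adjusted p = 1.11e-04). *Dusp1*, a MAP kinase phosphatase, was listed at 18724, 2941, 9386 and 6054 in aTregs and 9821, 1721, 5335 and 3325 in rTregs, a difference of 0.85 ± 0.07 (SE, adjusted p = 9.64e-05). Its level varied more between mice than between the subsets. For *Egr2* every aTreg library lay above every rTreg library. *Dusp1* overlapped between the subsets, although the aTreg library was higher in each of the 4 mice. *Dusp6* differed by 0.78 ± 0.12 (SE, adjusted p = 0.0021). *Nr4a1*, which encodes NUR77 and reports recent receptor signals, was listed at 2909.8, 3362, 2538 and 2641 in aTregs and 2849.9, 3331, 2212 and 2663 in rTregs, a difference of 0.057 ± 0.08 (SE, adjusted p = 0.63). *Nr4a1* overlapped between the subsets, with mice on both sides. *Nr4a2* (0.21) and *Nr4a3* (0.12) were not called. *Egr1* at 0.36, *Cd69* at −0.35 and *Myc* at −0.35 passed the p limit (adjusted p = 0.010, 0.016 and 0.012) but missed the 1.5-fold limit. Of 29 proximal signalling genes, *Ptpn22*, a phosphatase, was higher at 0.70 ± 0.07 (SE, adjusted p = 2.72e-04), and the kinase *Txk* at −0.91 ± 0.10 (SE, adjusted p = 3.37e-04) and the adaptor *Grap2* at −0.69 ± 0.10 (SE, adjusted p = 0.0014) were lower. The CD3 chain genes *Cd3d* (−0.15), *Cd3e* (0.22) and *Cd3g* (0.0025) were not called. Of 12 AP-1 family genes tested, *Mafg* at 1.02 ± 0.11 (SE, adjusted p = 3.88e-04) and *Batf3* were higher. *Batf3* was listed at 15.6, 118, 12.1 and 12.99 in aTregs and 3.08, 24.4, 2.64 and 2.01 in rTregs, with a difference of 2.08 ± 0.49 (SE, adjusted p = 0.016). *Batf3* overlapped between the subsets, although the aTreg library was higher in each of the 4 mice. The call of *Batf3* was lost without the pairing and without mouse 1, 2 or 3. Without mouse 2, 3 proximal signalling genes were higher.

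Members of the BCL2 family protect from or promote apoptosis. *Bcl2* was listed at 3977, 4148, 2757 and 2889 in aTregs and 6614, 5206, 6710.2 and 6262 in rTregs, a difference of −0.87 ± 0.14 (SE, adjusted p = 0.0022). For *Bcl2* every aTreg library lay below every rTreg library. The higher members were *Bcl2a1d* at 1.25 ± 0.16 (SE, adjusted p = 6.94e-04), *Bcl2a1b* at 0.67 ± 0.10 (SE, adjusted p = 0.0015), *Pmaip1* (0.81), a BH3-only gene also known as Noxa, and *Bik*, a BH3-only gene, at 1.71 ± 0.32 (SE, adjusted p = 0.005). *Bcl2a1b* and *Bcl2a1d* are near-identical copies, and reads could be split between them. In all, 4 of 16 members were higher and 1 of 16 lower, against 8.21% and 4.05% over all genes tested. Without the pairing 2 were higher. *Bcl2l11*, the BIM gene, at −0.35 ± 0.16 (SE, adjusted p = 0.15) and *Mcl1* (−0.29) were not called.

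Part of the genes of cell division were lower in aTregs, unevenly between mice. Of 50 proliferation genes, 15 were lower and 0 higher, with a median of −0.59. Without the pairing 2 were lower, without mouse 1 also 2, and without mouse 2 11, with 1 higher. *Ccnb2*, a mitotic cyclin, was listed at 541, 358, 387 and 301 in aTregs and 1516, 1349, 554 and 395 in rTregs, a difference of −1.07 ± 0.23 (SE, adjusted p = 0.011). *Stmn1*, a microtubule regulator, was listed at 2416, 1240.4, 1804 and 1662 in aTregs and 5769.6, 4234, 3425 and 1858 in rTregs, a difference of −1.03 ± 0.20 (SE, adjusted p = 0.0068). *Ccnb2* and *Stmn1* overlapped between the subsets, although the aTreg library was lower in each of the 4 mice. In both genes mice 1 and 2 had the highest rTreg values. *Ccne1* differed by −0.75 ± 0.14 (SE, adjusted p = 0.0058). *Mki67*, the proliferation antigen, was listed at 293, 363, 440.5 and 241 in aTregs and 633, 1231, 329.6 and 236 in rTregs. It was lower in the aTregs of mice 1 and 2 and higher in those of mice 3 and 4, with a difference of −0.61 ± 0.31 (SE, adjusted p = 0.19). The replication genes *Mcm2* to *Mcm7* lay between −0.051 and 0.43, and none was called. Of 9 CDK inhibitor and RB family genes tested, *Rbl2*, which encodes the quiescence protein p130, was higher at 1.03 ± 0.10 (SE, adjusted p = 2.44e-04). *Cdkn2d* at −1.37 ± 0.11 (SE, adjusted p = 1.02e-04) and *Cdkn3*, a phosphatase of dividing cells, at −1.36 ± 0.28 (SE, adjusted p = 0.0085) were lower. Without mouse 2, 3 genes of this list were higher, and without the pairing or without mouse 1, 1 was lower. *Cdkn1a*, the p21 gene, was listed at 102, 106, 102 and 90.9 in aTregs and 64.7, 94.2, 58.0 and 40.1 in rTregs, a difference of 0.70 ± 0.25 (SE, adjusted p = 0.078). *Cdkn1a* overlapped between the subsets, although the aTreg library was higher in each of the 4 mice.

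**Figure D3:**
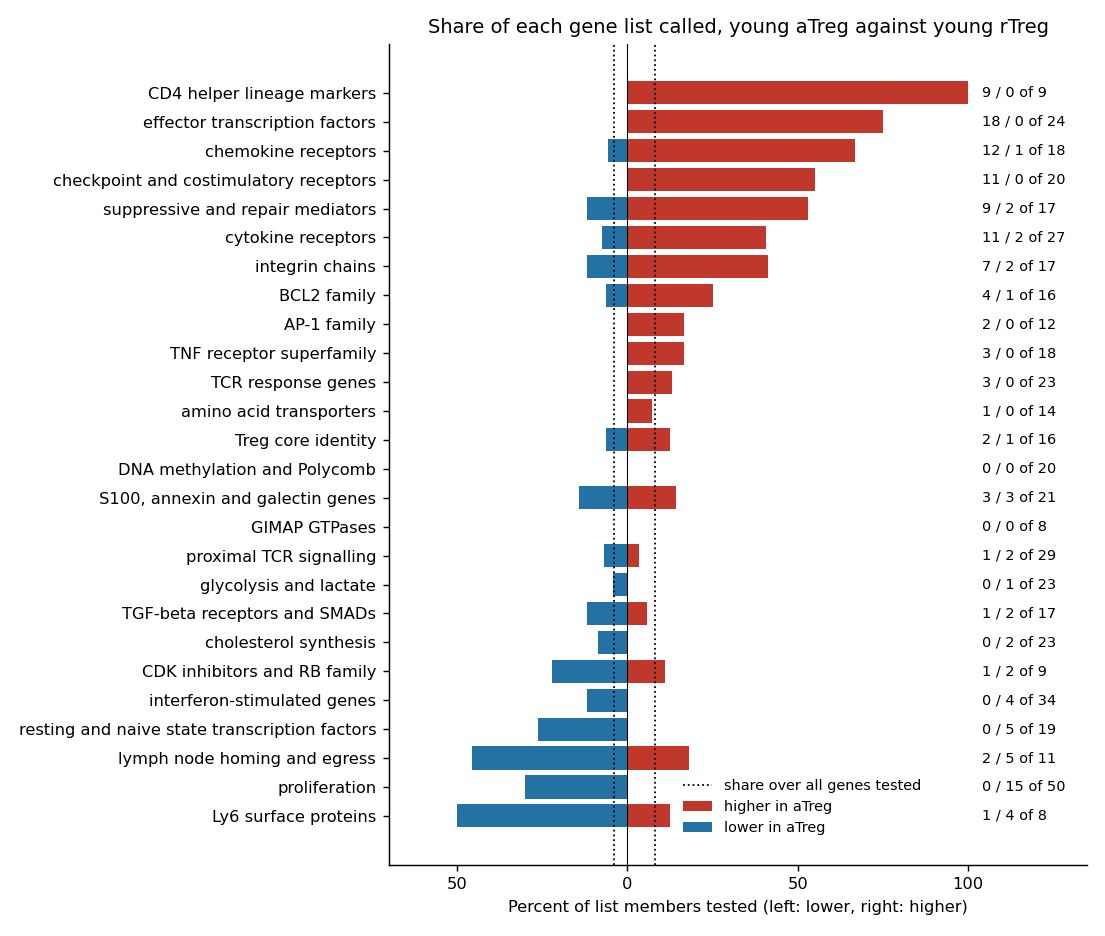
Bars give the percent of each list's tested members called higher (right, red) and lower (left, blue) in young aTregs, and the numbers on the right give higher / lower of tested. The dotted lines mark 8.21% and 4.05%, the shares over all 14490 genes tested. Helper markers (9 of 9) and effector transcription factors (18 of 24) stood highest on the right. The helper markers *Il4*, *Il17f* and *Csf2* passed the filter through aTreg libraries alone, so that share was partly set by the filter.

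The next lists held between 0 and 4 called genes each, to be read against the same shares over all genes, 8.21% higher and 4.05% lower. Of 23 glycolysis genes, *Eno3*, a muscle-type enolase, was lower at −0.89 ± 0.11 (SE, adjusted p = 7.44e-04) and none was higher. *Gapdh* differed by 0.10 ± 0.10 (SE, adjusted p = 0.51). *Hk2*, a hexokinase induced on activation, was higher in all 4 mice but not called, at 0.79 ± 0.27 (SE, adjusted p = 0.065). Without mouse 2, 3 glycolysis genes were higher. In the cholesterol synthesis list 2 of 23 were lower, among them *Fdps* at −0.71 ± 0.10 (SE, adjusted p = 0.0012), and 0 were higher, and without the pairing 1 was lower. *Slc43a1*, a neutral amino acid transporter, was the 1 of 14 amino acid transporters called, at 1.12 ± 0.24 (SE, adjusted p = 0.0092), and 0 were called without mouse 3. None of 20 DNA methylation and Polycomb genes and none of 8 GIMAP genes was called by limma. No member of either list reached the 1.5-fold limit in limma, so the counts of 0 at an unadjusted p and the same fold were fixed. The largest differences were those of *Tet1* at −0.51 and *Gimap4* at −0.38. Some members passed the adjusted p limit of limma at smaller folds, among them *Gimap4* (adjusted p = 0.0077) and *Bmi1* at 0.40 (adjusted p = 0.011). By edgeR and by DESeq2 the counts were 0 as well. Without mouse 2 limma called 1 of the DNA methylation and Polycomb genes lower. Of the interferon-stimulated genes, 4 of 34 were lower and 0 higher. The oligoadenylate synthetase gene *Oas2* differed by −1.47 ± 0.21 (SE, adjusted p = 0.0014), the related *Oasl1* by −1.40 ± 0.21 (SE, adjusted p = 0.0017) and *Ifi27l2a* by −0.59 ± 0.10 (SE, adjusted p = 0.0026), with *Usp18* (−0.79) as the other member called. *Isg15* at −0.27 ± 0.12 (SE, adjusted p = 0.13) was not called. Among 17 TGF-β receptors, ligands and SMADs tested, *Acvr2a* was higher at 1.01 ± 0.23 (SE, adjusted p = 0.013) and *Smad7*, the inhibitory SMAD, was lower at −0.64 ± 0.12 (SE, adjusted p = 0.0052). *Acvr1b*, also lower at −0.84 ± 0.25 (SE, adjusted p = 0.042), lost its call without the pairing and without any 1 of the 4 mice. In that list the counts were 0 higher and 1 lower without the pairing, 0 and 0 without mouse 3, and 3 and 1 without mouse 4.

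Of 8 Ly6 surface protein genes tested, 4 were lower and 1 was higher, and without the pairing 1 was lower. Beside *Ly6c1*, the lower members were *Ly6c2* at −1.11 ± 0.30 (SE, adjusted p = 0.026), *Ly6k* at −1.05 ± 0.15 (SE, adjusted p = 0.0014) and *Ly6d*. *Ly6d*, known from B cells, was listed at 12.3, 877, 26.5 and 19.9 in aTregs and 189, 1881, 215 and 159.6 in rTregs, with a difference of −2.71 ± 0.37 (SE, adjusted p = 0.0011). Both libraries of mouse 2 stood far above the others. *Ly6g5b* was higher at 2.11 ± 0.30 (SE, adjusted p = 0.0013). *Ly6a*, the Sca-1 gene, was listed at 12888, 8815, 11734 and 12223 in aTregs and 11979, 8105, 9595 and 8742 in rTregs, a difference of 0.25 ± 0.08 (SE, adjusted p = 0.047), below the 1.5-fold limit. *Ly6a* overlapped between the subsets, although the aTreg library was higher in each of the 4 mice. *Ly6d* overlapped between the subsets, although the aTreg library was lower in each of the 4 mice. Of the S100, annexin and galectin genes, 3 of 21 were higher and 3 of 21 lower, against 8.21% and 4.05% over all genes tested. Without the pairing the counts were 1 and 0, and without mouse 2 they were 5 and 2. *S100a4* at 1.29 ± 0.21 (SE, adjusted p = 0.0025), *S100a11* at 0.80 ± 0.14 (SE, adjusted p = 0.0033) and *Anxa1* at 1.26 ± 0.23 (SE, adjusted p = 0.0049) were the higher members. *Anxa2* at −0.62 ± 0.09 (SE, adjusted p = 0.0012) and the neutrophil genes *S100a8* and *S100a9* were the lower ones.

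Markers of other blood cells were present, most of all in mouse 2. *Ms4a1*, the CD20 gene of B cells, was listed at 5.57, 1151, 2.41 and 0 in aTregs and 33.9, 2560.0, 10.5 and 1.00 in rTregs, so both libraries of mouse 2 stood far above the other 6. *Cd79a*, *H2-Ab1*, *H2-Aa* and *Cd74* showed the same 2 libraries apart, and *Hba-a1*, a haemoglobin gene, was listed at 3156 in the rTreg library of mouse 2 against 31.1 to 308 in the other 7. *Lyz2*, the lysozyme gene of macrophages and neutrophils, was listed at 136, 2232, 94.8 and 32.9 in aTregs and 515, 6548, 1136 and 801 in rTregs. *Lyz2* overlapped between the subsets, although the aTreg library was lower in each of the 4 mice. *Ms4a1* overlapped between the subsets, although the aTreg library was lower in each of the 4 mice. The difference of *Lyz2* was −2.90 ± 0.41 (SE, adjusted p = 0.0014). This gene was called without mouse 2 as well but not without the pairing. Of 16 macrophage, monocyte and dendritic cell markers, 12 were tested, 4 were lower (*Lyz2*, *Csf1r*, *H2-Ab1* and *H2-Aa*) and 2 higher (*Cd74* and *Zbtb46*). Their summed level ranged over 15028 to 55860.0 in aTregs and 14584 to 68897 in rTregs, and mouse 2 gave the highest value of both. Much of each sum outside mouse 2 was *Ctss*, listed at 9341 to 12527 in aTregs and 10028 to 12326 in rTregs. The sums are therefore not amounts of such cells. Of 12 B cell markers, 8 were tested, 2 were lower (*Cd79a* and *Ms4a1*) and 1 higher (*Cd22*), while *Pax5*, *Ebf1*, *Cr2* and *Fcer2a* did not pass the filter. The summed level was 42024 to 54039 in aTregs and 26722 to 58563 in rTregs, most of it *Ighm*, which was listed at 42862, 40034, 40499 and 42449 in aTregs and 27545, 35486, 27401 and 25748 in rTregs. For *Ighm* every aTreg library lay above every rTreg library. Of 6 plasma cell markers, 4 were tested. *Sdc1*, the CD138 gene, was higher and listed at 100.3, 152, 163 and 70.2 in aTregs and 11.3, 74.2, 5.27 and 1.00 in rTregs, and *Derl3* was higher. *Jchain* was lower and listed at 18.9, 0, 0 and 9.53 in aTregs and 50.3, 1025, 170.1 and 97.4 in rTregs. For *Jchain* every aTreg library lay below every rTreg library. *Sdc1* overlapped between the subsets, although the aTreg library was higher in each of the 4 mice. Plasma cell sums were 4728 to 5489 and 4428 to 5798, most of it *Xbp1*, with means of 4866 in aTregs and 4484 in rTregs. Neutrophil markers were tested in 4 of 8 cases, 2 of them lower, with sums of 9.53 to 922 and 26.1 to 3729.8. Of 10 NK and cytotoxic markers, 8 were tested, 4 higher (*Klrb1c*, *Klrk1*, *Eomes* and *Nkg7*) and 2 lower (*Gzma* and *Prf1*), with sums of 2507 to 3874 and 1683 to 3510.5. *Cd8a* and *Cd8b1* were both lower. *Cd8a* was listed at 4.46, 309, 12.1 and 0 in aTregs and 30.8, 744, 23.7 and 24.1 in rTregs, and the 2 genes summed to 339 to 1115 and 566 to 2184. *Cd8a* overlapped between the subsets, although the aTreg library was lower in each of the 4 mice. None of 7 erythroid and platelet markers tested was called, with sums of 174 to 673 and 119 to 6971. Without the pairing, 0 of the B cell, macrophage, monocyte and dendritic cell, neutrophil and CD8 T cell markers were called, 1 plasma cell marker was higher and 1 lower, and 2 NK markers were higher and 2 lower. Without mouse 2, 4 B cell markers were higher and 1 lower, and 1 erythroid or platelet marker was higher. The part of such cells in the differences was not tested. Without mouse 2, 1293 genes were higher and 642 lower, and 1579 of the 1776 calls were shared with those of all 4 mice.

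**Figure D4:**
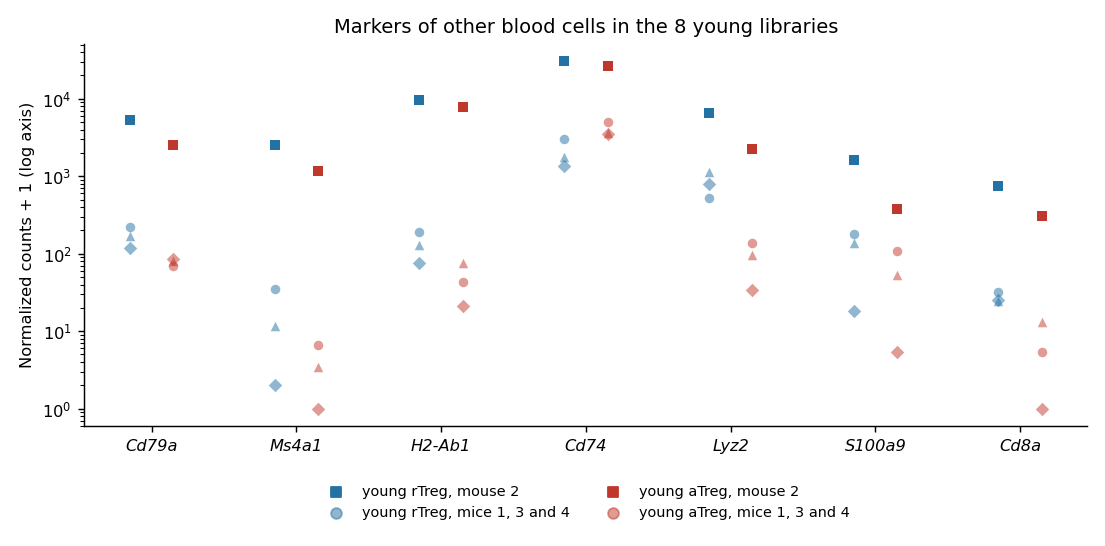
Normalized counts plus 1, on a log axis, of 7 marker genes in the 4 rTreg (blue) and 4 aTreg (red) libraries, with mouse 2 as solid squares and the other mice pale. For every gene shown both libraries of mouse 2 lie above all libraries of the same subset from mice 1, 3 and 4, for *Ms4a1* at 2560.0 and 1151 against 33.9 or less.

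The same comparison in old mice, 26 months old, was used to ask which differences depended on age, with a test of the old minus the young difference in limma over 16 libraries and 8 mice. By this test 291 genes passed an adjusted p of 0.05 (2.01%), 79 with the old difference above and 212 with it below the young one. Of the 1776 genes called in young mice, 123 were among them (6.93%), and 1355 had the same sign in old mice. Of the 1189 higher genes, 76 had a difference below that of young mice and 5 above it, and of the 587 lower genes 25 had it below and 17 above. These genes were chosen by their young difference, which the test subtracts, so their share and the split of the higher genes are no result. The count rested on single mice: it was 21 without young mouse 3, 35 without young mouse 4, 56 without young mouse 1, 127 without young mouse 2, 98 without old mouse 1 and 2391 without old mouse 3. Without the pairing it was 147.

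Among the named genes 16 passed this test. *Igfbp4* differed by −2.40 in young and −4.95 in old mice (adjusted p of the difference = 0.0074), with 94.0 to 348 in old aTregs and 4183 to 6802 in old rTregs. The old rTreg levels overlapped the young ones, and every old aTreg library lay below the lowest young aTreg library at 762. *Id2* differed by 2.35 in young and 2.60 in old mice (adjusted p of the difference = 0.39), with 10867 to 16937 in old aTregs and 1837 to 2824 in old rTregs, and both ranges lay above those of young mice. *Il7r* differed by 0.64 in young and 2.18 in old mice (adjusted p of the difference = 0.0081). Genes higher in young aTregs whose old difference was near 0 included *Cyfip1* at 1.53 in young and 0.10 in old mice (adjusted p of the difference = 0.039), *Tnfrsf8* at 2.64 in young and −0.043 in old mice (adjusted p of the difference = 0.032), *Il17rb* at 2.74 in young and 0.10 in old mice (adjusted p of the difference = 0.011) and *Il18rap* at 2.09 in young and 0.28 in old mice (adjusted p of the difference = 0.019). *Il4* differed by 5.21 in young and 1.09 in old mice (adjusted p of the difference = 0.034), with 151 to 252 in old aTregs and 50.3 to 250.5 in old rTregs. *Il4* passed the filter through the young aTreg libraries alone and was named for its young difference, which this test subtracts. Its difference between ages was therefore partly set by that choice. *Ly6c1* differed by −2.93 in young and −0.70 in old mice (adjusted p of the difference = 0.042). Genes of myeloid and NK cells were among those that passed. *Lyz2* was listed at 104 to 224 in old aTregs and 9381 to 25153 in old rTregs, and *Tyrobp*, an adaptor of myeloid and NK receptors, at 10.3 to 17.3 and 904 to 4699. Macrophage, monocyte and dendritic cell markers summed to 20481 to 29143 in old aTregs and 30926 to 56033 in old rTregs. *Ctss* alone was listed at 10287 to 13924.5 in old aTregs and 9350 to 11416 in old rTregs. The part of these cells in the differences between ages was not tested.

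**Figure D5:**
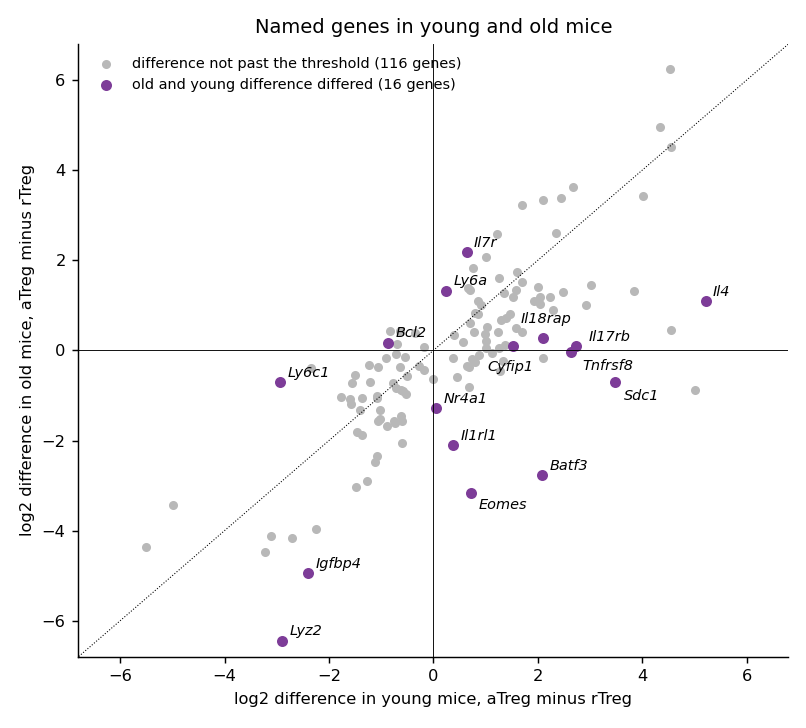
Each point is 1 of the 132 named genes, with its log2 difference of aTreg minus rTreg in young mice on the x axis and in old mice on the y axis, and the dotted line marks equal differences. The 16 purple genes passed the test of the difference between ages, such as *Igfbp4* at −2.40 and −4.95 and *Il4* at 5.21 and 1.09. *Il4* passed the filter through the young aTreg libraries alone, so its place was partly set by the filter.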

How the data were processed

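Bulk polyA RNA of sorted splenic Tregs was extracted with the RNeasy Micro kit, made into cDNA with SMART-Seq v4 and sequenced in paired ends on a NovaSeq X Plus. Per the submitters' processing notes, HISAT2 2.2.1, SAMtools 1.13, HTSeq 1.99.2 and DESeq2 1.44.0 were used with the build GRCm39; the annotation release, the strand setting, the handling of reads with several matches and the size factor formula are not given in the sources used here. The deposited values are a signal scaled by the authors: read counts per gene divided by 1 size factor per library. Whole reads were recovered from their steps (100% of values within 0.001 reads, or the same share of the value in high genes), and every listed gene held at least 100 reads over the 24 libraries. Symbols of 17353 of 17464 genes matched GENCODE M39.

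Values were tested as log2(value + 1) with limma 3.58.1 (R 4.3.3) in the 8 young libraries with the mouse as a block, the trend of the variance with the mean modelled, and p adjusted over the 14490 genes tested. Pairing by mouse comes from the design text, by which each mouse gave all 3 subsets. Deviations from the group means correlated at 0.377, 0.319, 0.276 and 0.250 for the 4 same-mouse pairs and at −0.239 to 0.162 for all others. The difference between ages was an interaction in 16 libraries with 8 mice as blocks. Alternatives were fits without pairing or over all 24 libraries, other pseudocounts and filters, TMM rescaling, each mouse left out, and edgeR 4.0.16 and DESeq2 1.42.0 on the recovered reads. The scripts were tested on simulated data.

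Genes named with full statistics were the sort and Treg markers, the 8 of smallest p and the 5 of largest fold in each direction (protein-coding, with at least 100 in each library of the higher subset for the fold), up to 3 called members of each list by p in each direction, and preset members. Others given by library, such as *Ighm*, *Tyrobp* and *Hba-a1*, and the members in parentheses were chosen after their values were seen. Some genes that the rule or the lists hold are not reported here, although the counts over lists include them. The comparison, its gene lists and tests were chosen with earlier results of these data known.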

Additional observations from a re-analysis of the deposited data

Results flagged for a closer look

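In 39 of 264 groups of 4 libraries tested, 132 genes in the 2 young subsets, the highest or lowest library lay farther from the others than Dixon's 95% limit. Chance alone would flag about 1 in 20 groups, and genes of one library are not independent. The aTreg library of mouse 2 stood apart for *Tox2* at 1339.6, *Tmem176b* at 2492, *Gzma* at 66.1, *Lyz2* at 2232, *Batf3* at 118, *Ly6d* at 877, *Cd22* at 1262 and *Cd79a* at 2557. The aTreg library of mouse 2 also stood apart for *Ms4a1* at 1151, *Cd74* at 26305, *H2-Ab1* at 7709.5, *H2-Aa* at 5868 and *Cd8a* at 309. The rTreg library of mouse 2 stood apart for *Tmem176a* at 273, *Lyz2* at 6548, *Cxcr6* at 638, *Batf3* at 24.4, *Anxa1* at 409, *S100a8* at 885, *S100a9* at 1611 and *Ly6d* at 1881. The rTreg library of mouse 2 also stood apart for *Cd22* at 1509.9, *Cd79a* at 5242, *Ms4a1* at 2560.0, *Sdc1* at 74.2, *Jchain* at 1025, *Cd74* at 30343 and *H2-Ab1* at 9552. The rTreg library of mouse 2 also stood apart for *H2-Aa* at 6802, *Cd8b1* at 1440.1 and *Cd8a* at 744.

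The aTreg library of mouse 1 stood apart for *Klrg1* at 177. The aTreg library of mouse 3 stood apart for *Ccl1* at 402 and *Klf2* at 1878. The aTreg library of mouse 4 stood apart for *Ptpn22* at 8621 and *Cdkn3* at 32.0. The rTreg library of mouse 3 stood apart for *Id3* at 8713. The rTreg library of mouse 4 stood apart for *Ndrg3* at 8912 and *Ikzf2* at 2951. These values are normalized counts.

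The aTreg minus rTreg difference differed between old and young mice, by the limma test of that difference, in 16 named genes. On the log2 scale the old minus young differences were *Igfbp4* −2.55, *Cyfip1* −1.42, *Ly6c1* 2.23, *Lyz2* −3.54 and *Tnfrsf8* −2.68. For the next genes they were *Il17rb* −2.64, *Il18rap* −1.81, *Il7r* 1.54, *Il1rl1* −2.48, *Nr4a1* −1.34 and *Batf3* −4.85. The remaining ones were *Bcl2* 1.04, *Ly6a* 1.08, *Il4* −4.12, *Sdc1* −4.18 and *Eomes* −3.89. Of these, *Il4* passed the filter through the young aTreg libraries alone.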

How the results depend on the processing

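Without the pairing by mouse, 787 genes were higher and 316 lower in young aTregs, all among the 1776 called with it, and 30 of the 132 named genes lost their call. With all 24 libraries in 6 groups and no pairing the counts were 462 and 116. Leaving out 1 mouse gave 741 to 1293 higher and 320 to 642 lower genes, the lowest without mouse 3. Under 8 other settings, which changed the pseudocount, the filter, the scaling, the adjustment of p or the tool, both counts stayed within 1.5 times. On the recovered reads edgeR called 1100 higher and 581 lower and DESeq2 1145 and 677. The count of genes that differed between ages was 147 without the pairing, 2978 at an unadjusted p and 21 to 2391 with 1 mouse left out. Of the repeats for the named genes, 1697 kept their call or stayed uncalled, 137 lost a call, 10 gained one and 0 reversed the direction of a call. A change of sign in a gene called in neither fit was counted as unchanged. Each subset had 4 mice, and levels under 3 reads could not be told from 0. The cause of these shifts was not tested.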

Other observations

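Genes of cytosolic ribosomal proteins, a group chosen after its values were seen, were mostly lower in young aTregs. Of 82 tested, 36 were called lower and 0 higher, 80 had a difference below 0, and the median difference was −0.56 on the log2 scale. Leaving out 1 mouse gave 25 to 47 lower genes, the fit without pairing gave 24 and the fit of all 24 libraries in 6 groups gave 4. Many of these genes have processed pseudogenes of nearly the same sequence, so reads could be split between copies. Of 706 processed pseudogenes tested, also chosen after their values were seen, 69 were lower and 7 higher, with 26 and 3 without the pairing and 27 and 4 without mouse 3. The median exon length of protein-coding genes was 4825.5 bases for those called lower, 6309 for those called higher and 6355 for those not called. The part of gene length in these calls was not tested.

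Some segments of immunoglobulin and γδ T cell receptor genes, which are no part of the receptor of αβ T cells, were also higher, again chosen after their values were seen. *Ighj1*, a joining segment of the immunoglobulin heavy chain, was listed at 259.6, 295, 233 and 335 in aTregs and 54.4, 89.7, 15.8 and 32.1 in rTregs. *Ighd4-1*, a diversity segment of the same locus, was listed at 152, 165, 156 and 171 in aTregs and 28.8, 32.1, 19.8 and 30.1 in rTregs. All 4 joining segments of immunoglobulin genes tested and the 1 diversity segment were called higher. Other classes went both ways or had few calls, with 1 higher and 1 lower of 6 constant segments and 1 higher and 1 lower of 3 variable segments of immunoglobulins. Of the T cell receptor segments of all chains, 1 of 7 constant ones was higher, and 2 of 97 variable ones were higher and 1 lower. *Trgc2*, a constant segment of the T cell receptor gamma chain, was listed at 438, 228, 518 and 273 in aTregs and 165, 161, 204 and 196 in rTregs, and *Trgv2*, a variable segment, at 69.1, 21.0, 73.9 and 45.0 in aTregs and 6.16, 11.1, 19.8 and 11.04 in rTregs. In these genes every aTreg library was above every rTreg library.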
